A study of Homo sapiens with 6 samples.

Results

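The 10 genes described here encode amino acid transporters: SLC7A11, SLC7A5, SLC3A2, SLC7A1, SLC1A5, SLC1A4, SLC38A1, SLC38A2, SLC6A9 and SLC43A1. They were read through every probe whose only gene symbol in the platform annotation was 1 of these, which gave 14 of the 48803 probes and 10 of the 18852 named genes on the array. SLC6A9 had 3 probes, SLC3A2 and SLC38A1 had 2 each, and every other gene had 1. Total RNA came from OVSAYO, an established human clear cell ovarian cancer line, and was hybridised to 6 single-colour Illumina arrays. All cultures were transfected with hairpin inhibitors at 66 nM in all and harvested 48 hours later. The 3 control cultures received a negative control hairpin modelled on a nematode microRNA, and the 3 others received an inhibitor of miR-30a at 44 nM together with an inhibitor of miR-30d at 22 nM. The series description calls the reagents mimics, whereas the sample labels and the transfection protocol call them inhibitors. The labels are followed here, and every direction below rests on them. Arrays of mock-transfected cells were not analysed here. One line under transient transfection is the model, and how far miR-30 activity fell was not measured on these arrays. The labels call the 3 samples of a group biological replicates and give no culture, passage or day for each, so the p-values cover only the spread among these arrays, which may be technical.

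Cells take up amino acids through membrane carriers with overlapping substrates. Some work as exchangers that let 1 amino acid in for each that leaves, and others use the sodium gradient to concentrate their substrate. Several of the genes are textbook targets of ATF4, a transcription factor that is made when amino acids run short or protein folding is disturbed, and tumour cells often carry high levels of the glutamine, leucine and cystine carriers. The comparison asks whether the transcripts of these carriers differ when the miR-30 inhibitors are present. The mature sequence of miR-30a-5p (RefSeq, GRCh38.p14, chr6:71403595-71403616, minus strand) is shown because it is what the main inhibitor is meant to bind. The capitals mark its seed, bases 2 to 8, through which the microRNA pairs with mRNAs.
hsa-miR-30a-5p: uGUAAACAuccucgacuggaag

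With the miR-30 inhibitors, no transporter probe passed the threshold, and most lay slightly above the controls. Of the 8 genes that could be measured, 7 were above 0 and 1 below, with a median log2 fold change, inhibitor minus control, of 0.11. SLC7A11, the cystine carrier, had the highest value of the 8 genes, a 1.15-fold difference (95% interval 1.01 to 1.30). SLC38A1, a glutamine carrier, was the gene below 0, at 0.984-fold (95% interval 0.875 to 1.11). Over all 12183 measured genes the median was 0.01, and 52.1% were above 0. Of the 11 measured probes 10 were above 0, against 51.7% of all probes. By limma's test with Benjamini-Hochberg adjustment, 0 of the 11 measured transporter probes passed an adjusted p of 0.05, as was the case for 0% of all 21928 probes. At an unadjusted p under 0.05 there was 1 of 11 transporter probes, against 10.0% of all probes. The standard errors of the 11 probes ran from 0.08 to 0.13 on the log2 scale. The median of 0.11 was 0.057 without inhibitor replicate 1 and 0.17 without inhibitor replicate 3.

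Mean raw signal per array ranged from 222.6 to 258.5, and 43.4% to 45.2% of probes were detected. The first principal component of the normalized values held 42.1% of the variance and did not separate the groups: inhibitor replicates 1 and 2 lay on 1 side, and inhibitor replicate 3 lay on the other with all 3 controls, of which replicate 2 was the outermost. All 12 measured genes of the epithelial and clear cell marker list were detected on every array, among them EPCAM, CDH1, KRT8 and PAX8. Of the other cell types, DCN and LUM (fibroblast), MS4A1, CD14 and CD68 (leukocyte) and PECAM1 (endothelial) were detected on all 6 arrays. The DCN, LUM, MS4A1 and CD14 probes were dim, with mean raw signals of 52.3, 68.3, 57.3 and 83.8 in the controls. With the inhibitors they had 51.6, 72.6, 58.4 and 81.0. The further probes of these genes fell short of detection on 3 arrays. TEK (endothelial) was detected on 3. CD68 had a mean raw signal of 373.3 in the controls and 377.6 with the inhibitors. The leukocyte gene PTPRC, the endothelial gene VWF and the fibroblast gene PDGFRB were among those detected on 0 arrays. Summed raw signals of these lists are over all their named probes, detected or not. Of the fibroblast list 2 of 8 genes were measured, and its sum was 601.1 to 622.4 in the controls and 556.2 to 616.5 with the inhibitors. The leukocyte list had 3 of 8 named genes measured and a sum of 1344 to 1485 and 1297 to 1455. The endothelial list had 2 of 5 measured and a sum of 278.3 to 301.0 and 254.9 to 281.1, and its PECAM1 was −0.32 on the log2 scale (limma adjusted p 0.443). The PECAM1 probe was dim, with a mean raw signal of 59.1 in the controls and 50.8 with the inhibitors. Those lists' part in the results below was not tested.

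A probe counted as detected on an array when its detection score, which the software sets from the negative controls, was above 0.95. By that rule 10 transporter probes were detected on all 6 arrays, 1 on 5 arrays and 3 on none. The probes of SLC7A5, SLC3A2, SLC7A1, SLC38A2 and SLC1A5 and the brighter probe of SLC38A1 had raw signals of 637.1 or more on every array. Levels of different probes were not ranked against each other, because probes differ in how well they bind. The neutral amino acid exchanger gene SLC1A4 was not detected on any array, with raw signals from 37.6 to 48.9. SLC43A1, a carrier of branched-chain amino acids, was likewise detected on none, with raw signals from 35.3 to 46.3. The median probe of an array read between 44.1 and 49.9. No fold change is given for SLC1A4 and SLC43A1, whose groups were both at background.

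**Figure D1:**
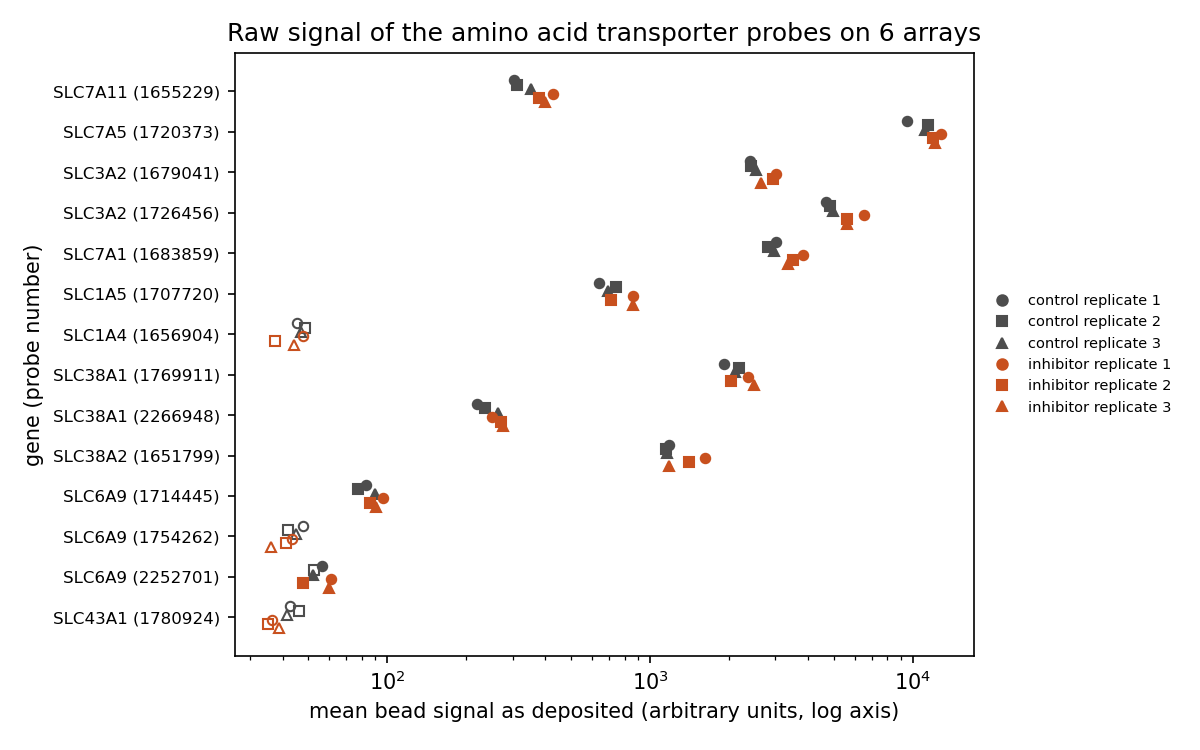
Mean bead signal as deposited (arbitrary units, log axis) of each of the 14 transporter probes on the 3 control arrays (grey) and the 3 inhibitor arrays (orange); shapes give the replicate, and open symbols mark arrays on which the probe was not detected. SLC1A4, SLC43A1 and 1 probe of SLC6A9 are open throughout, and the SLC7A5 symbols run from 9493 to 12776.

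SLC7A11 is the light chain of the cystine-glutamate exchanger, which brings in cystine, the source of cysteine for glutathione. Its probe (ILMN_1655229) had log2 levels (background-corrected, quantile-normalized intensity) of 8.28, 8.18 and 8.39 on control replicates 1, 2 and 3. The inhibitor replicates read 8.54, 8.50 and 8.39. All inhibitor values lay above all control values, but the lowest of the inhibitor values exceeded the highest of the controls by only 0.0074. Such separation in the higher direction was found in 8.40% of all probes, and 4.83% were higher at an unadjusted p under 0.05. SLC7A11 was the 1 transporter probe without overlap in either direction, against 15.5% of all probes. The means were 8.28 ± 0.11 (SD, n = 3) and 8.48 ± 0.07 (SD, n = 3), a log2 fold change of 0.20 ± 0.08 (SE) with a limma unadjusted p of 0.0394 and an adjusted p of 0.481. The spread over the 30 to 46 beads of this probe on an array gave a standard error of the signal of 2.61% to 3.86%.

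SLC7A11 works only as a pair with SLC3A2, the heavy chain that carries it to the membrane. SLC3A2 was read by a brighter probe (ILMN_1726456) with log2 levels of 12.35, 12.29 and 12.31 in the controls. With the inhibitors it read 12.55, 12.43 and 12.34. Inhibitor replicates 1 and 2 lay above every control, while inhibitor replicate 3 was just under the highest control, a gap of −0.0088, so the groups overlapped. The difference was 0.13 ± 0.08 (SE), with a 95% interval from −0.05 to 0.30 and a limma adjusted p of 0.607. The second SLC3A2 probe (ILMN_1679041) read 11.38, 11.28 and 11.33 in the controls and 11.44, 11.51 and 11.23 with the inhibitors. On it inhibitor replicate 3 was the lowest of all 6 arrays, and the difference was 0.06 ± 0.09 (SE). Neither interval excluded 0. With 1 array left out the brighter probe ran from 0.0735 without inhibitor replicate 1 to 0.18 without inhibitor replicate 3, and the other from 0.0058 without inhibitor replicate 2 to 0.15 without inhibitor replicate 3.

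SLC7A5, the leucine carrier known as LAT1, is the other light chain in this set that pairs with SLC3A2, and it exchanges large neutral amino acids for glutamine. Its log2 levels were 13.35, 13.52 and 13.49 in the controls and 13.51, 13.50 and 13.47 with the inhibitors. The groups overlapped fully, with the lowest and the highest value both among the controls. The difference was 0.04 ± 0.08 (SE), with a 95% interval of 0.915-fold to 1.16-fold. The inhibitor values were close together, with an SD of 0.02 against 0.09 in the controls, where replicate 1 was low.

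SLC7A1 carries arginine and lysine into cells. Its log2 levels were 11.71, 11.48 and 11.56 in the controls and 11.77, 11.76 and 11.56 with the inhibitors. Inhibitor replicates 1 and 2 exceeded all controls, while inhibitor replicate 3 was level with control replicate 3. The difference was 0.12 ± 0.09 (SE), with a limma adjusted p of 0.673. It was 0.0647 without control replicate 2, and 0.18 without either control replicate 1 or inhibitor replicate 3.

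SLC1A5, known as ASCT2, exchanges glutamine and other neutral amino acids with sodium. It read 9.43, 9.50 and 9.43 in the controls and 9.60, 9.44 and 9.55 with the inhibitors. Here inhibitor replicate 2 was the array that fell among the controls. The difference was 0.08 ± 0.08 (SE), with a limma adjusted p of 0.746. It was 0.0413 without inhibitor replicate 1 and 0.12 without inhibitor replicate 2. Its relative SLC1A4 was at background, as described above.

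SLC38A1 and SLC38A2 are sodium-coupled carriers that build up glutamine and other small neutral amino acids, and SLC38A2 is known to be induced when amino acids are scarce. SLC38A2 read 10.34, 10.16 and 10.19 in the controls and 10.50, 10.44 and 10.03 with the inhibitors. The inhibitor arrays held both the highest and the lowest of its 6 values, so that its SD was 0.26 with the inhibitors against 0.10 in the controls. The difference was 0.10 ± 0.12 (SE), with a limma adjusted p of 0.804. Without inhibitor replicate 3 it was 0.24 (limma adjusted p 0.181). It was 0.0365 without inhibitor replicate 2 and 0.0065 without inhibitor replicate 1, so leaving out any inhibitor array changed its size.

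The brighter probe of SLC38A1 (ILMN_1769911) read 11.05, 11.11 and 11.08 in the controls and 11.07, 10.98 and 11.13 with the inhibitors. Its difference was −0.02 ± 0.08 (SE), the narrowest standard error of the 11 probes. The dimmer probe (ILMN_2266948) read 7.75, 7.72 and 7.92 in the controls and 7.71, 7.98 and 7.82 with the inhibitors, a difference of 0.04 ± 0.09 (SE). The probes had opposite signs and both intervals spanned 0, with upper bounds of 1.11-fold and 1.18-fold.

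SLC6A9 takes up glycine together with sodium and chloride. Its brightest probe (ILMN_1714445) read 5.92, 5.63 and 6.02 in the controls and 6.01, 6.01 and 5.94 with the inhibitors. Control replicate 2 was the low value, and without it the difference of 0.13 ± 0.10 (SE) was 0.019. A dimmer probe (ILMN_2252701), detected on 2 of 3 control and 3 of 3 inhibitor arrays, read 4.91, 4.56 and 4.70 and then 5.02, 4.64 and 5.11, a difference of 0.20 ± 0.13 (SE). That difference was 0.34 without inhibitor replicate 2, 0.10 without inhibitor replicate 3 and 0.023 when control replicate 2 was left out as well. The third probe (ILMN_1754262) was detected on no array, with raw signals from 36.1 to 47.7, so the SLC6A9 probes disagreed on whether the gene was measurable. 

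**Figure D2:**
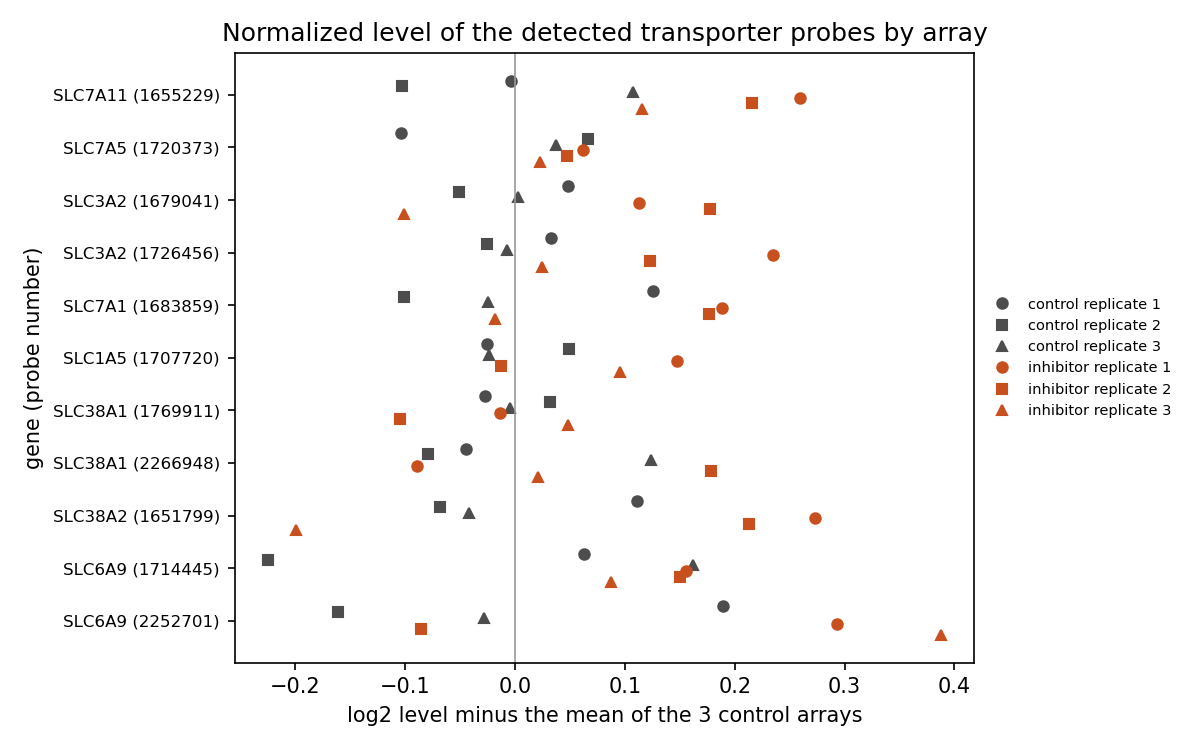
Log2 level of the 11 measured transporter probes on each array minus the mean of the 3 control arrays; grey symbols are controls, orange symbols are inhibitor arrays, and shapes give the replicate. The SLC7A11 inhibitor values all sit to the right of its control values, by 0.0074 at the closest, while the groups overlap for the other 10 probes.

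Set side by side, the 11 differences ran from −0.02 to 0.20. No 95% interval of a probe detected on all arrays reached beyond 0.875-fold or 1.30-fold. The interval of SLC7A11, at 0.01 to 0.38 on the log2 scale, was the 1 interval of the 11 that lay above 0, and it is not adjusted for the number of probes. The median within-group SD of the transporter probes was 0.11, the same as the 0.11 of all probes, so they were measured with ordinary precision.

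**Figure D3:**
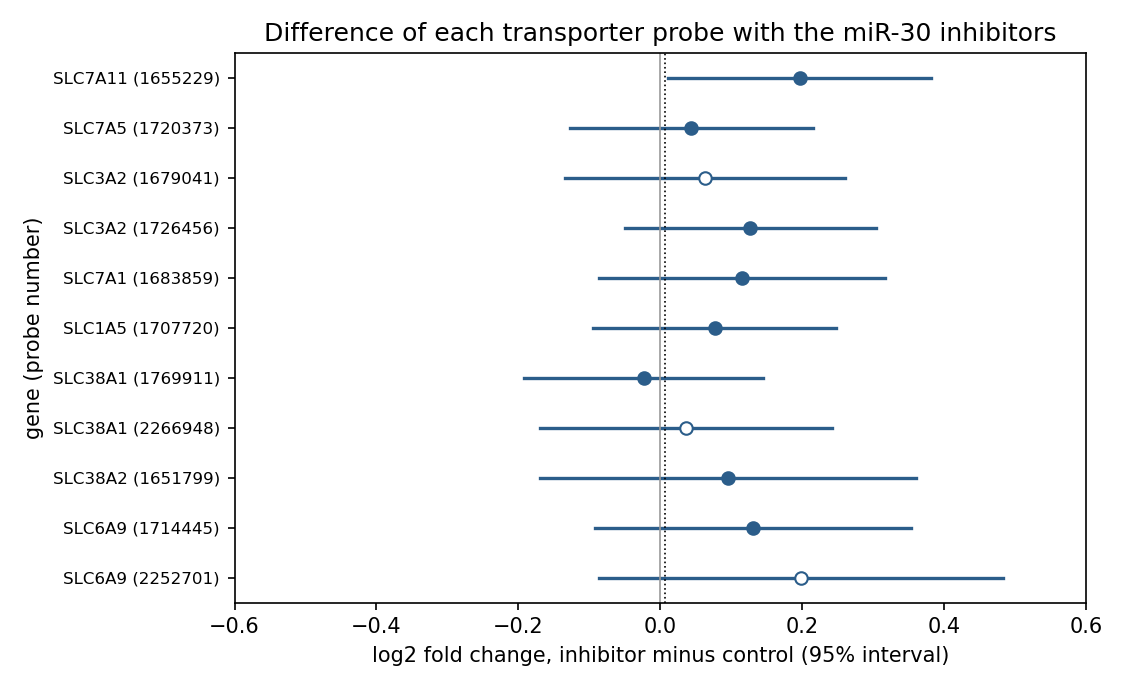
Log2 fold change of the 11 measured transporter probes, inhibitor minus control, with 95% intervals from limma; filled points are the probes that stand for their gene and open points are further probes. The dotted line is the median of all genes at 0.01, and only the SLC7A11 interval, from 0.01 to 0.38, clears the grey line at 0.

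On control replicate 2 and on inhibitor replicate 3, most of the transporter probes, but not all, lay below their group means. Those arrays were the outermost control on the first principal component and the inhibitor array on the side of the controls. Of the 11 probes, 7 had both control replicate 2 and inhibitor replicate 3 below their own group means, and 2 had both above. SLC3A2 enters the 7 with both of its probes. On control replicate 3 and inhibitor replicate 2 the signs were mixed, and whether the probes vary together was not tested. Over all probes 31.0% had both below and 31.1% both above. SLC38A2 was 0.29 below its group mean on inhibitor replicate 3 and 0.18 above it on inhibitor replicate 1. SLC1A5 and the brighter SLC38A1 probe were the pair that ran the other way, at 0.05 and 0.03 on control replicate 2 and 0.02 and 0.07 on inhibitor replicate 3. The mean log2 level of the 8 genes relative to the controls was 0.02, −0.05 and 0.03 on the controls and 0.16, 0.10 and 0.02 on inhibitor replicates 1, 2 and 3. The value of inhibitor replicate 3 thus fell among the controls. Without both arrays the median of the 8 genes was 0.11, with 7 of 8 above 0.

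**Figure D4:**
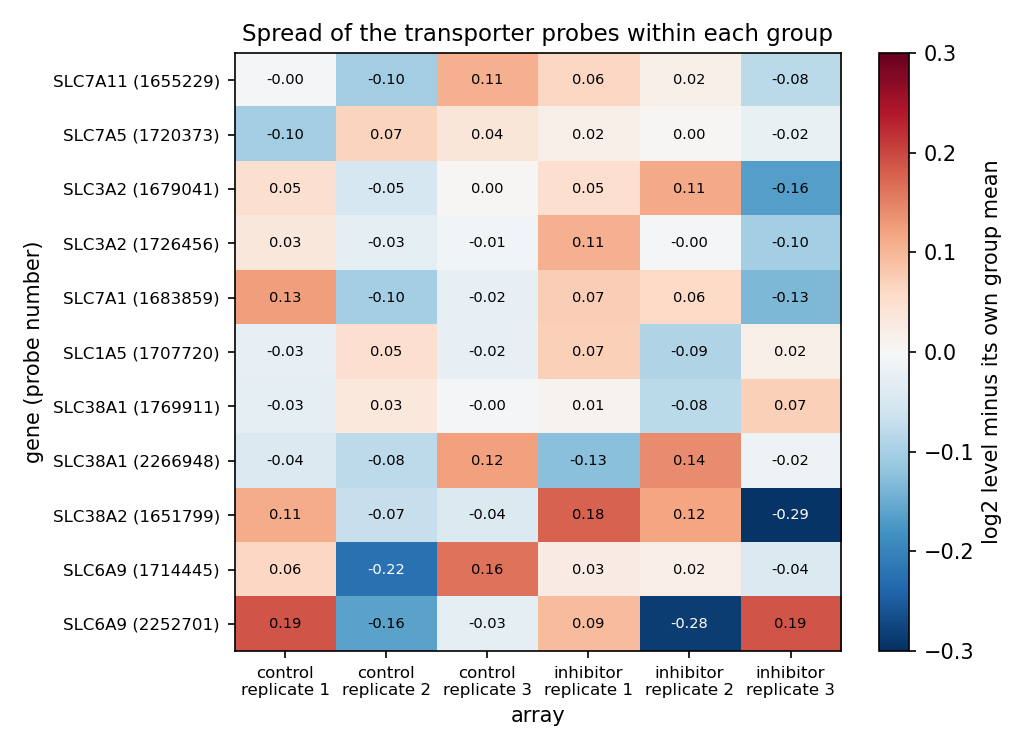
Log2 level of each of the 11 measured transporter probes on each array minus the mean of that array's own group; red is above the group mean and blue below. The column of inhibitor replicate 3 reaches −0.29 in SLC38A2, and in 7 of the 11 rows both it and control replicate 2 are blue.

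How the arrays were brought to a common scale bears on the direction. Before normalization all 11 transporter probes had a higher mean raw signal with the inhibitors, as 62.3% of all probes did, and in 6 of the 11 every inhibitor signal exceeded every control signal, against 17.2% of all probes. With each array centred on its median instead of quantile normalization, the median of all genes moved to 0.12, and that of the transporter genes to 0.24, which is 0.12 above the median of all genes. SLC38A1, the gene below 0, was then at 0.13 and still 0 probes passed. With quantile normalization that distance was 0.099. The median used for centring was taken over all 48803 probes. Of these 43.4% to 45.2% were detected per array, so it fell among undetected probes.

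Of the 10 genes, 9 had promoter sequences in the RefSeq table of GRCh38.p14, in 16 windows of 300 bases that run from 250 before to 50 after an annotated start. The windows were searched on both strands for TGATGNAA, the core of the element through which ATF4 acts, in which N is any base. It was found in 5 of the 9 genes and 5 of the 16 windows, against 4.46% of 27305 genes and 3.62% of 35116 windows. Genes with more windows have more chances of a match. The matches are shown so that these 5 promoters can be compared. Each is given on the gene's strand with the match in capitals, and where the match lies on the other strand the capitals are its reverse complement.
SLC7A1, chr13:29595663-29595692, minus strand: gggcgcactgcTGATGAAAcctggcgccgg
SLC1A5, chr19:46784893-46784922, minus strand: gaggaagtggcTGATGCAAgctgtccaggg
SLC38A1, chr12:46266502-46266531, minus strand: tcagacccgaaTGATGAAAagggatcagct
SLC1A4, chr2:64989381-64989410, plus strand: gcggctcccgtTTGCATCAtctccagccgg
SLC3A2, chr11:62881719-62881748, plus strand: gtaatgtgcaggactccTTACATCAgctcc
The match began 8 bases into the transcript in SLC7A1 and 38 bases into it in SLC3A2. It began 97 bases before a further annotated start in SLC1A5, 4 before it in SLC38A1 and 7 before it in SLC1A4. The differences of the genes with a match were 0.12 for SLC7A1, 0.13 for SLC3A2, 0.08 for SLC1A5 and −0.02 for SLC38A1, and SLC1A4 was not measurable. Of those without a match in these windows SLC43A1 was not measurable, and the rest were at 0.04 for SLC7A5, 0.10 for SLC38A2 and 0.13 for SLC6A9. SLC7A11, at 0.20, had no window to search and is in neither group. The ranges overlapped, and a match shows letters, not a site in use.

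Genes around these carriers were described by lists. A list of 33 other genes stood for amino acid transporters of the plasma membrane, some by family rather than by known substrate. Of these, 18 were measured, 13 of them higher and 5 lower with a median of 0.05. None passed over all genes by limma, where 0% of genes did, and 2 were higher at an unadjusted p under 0.05, against 10.1% of all genes in either direction and 4.79% in the higher one. This median was −0.0023 without inhibitor replicate 1 and 0.12 without inhibitor replicate 3. The 2 genes with an unadjusted limma p under 0.05 were SLC6A15, at 0.26 ± 0.08 (SE), and SLC43A3, at 0.22 ± 0.09. Their limma adjusted p values over genes were 0.451 and 0.456. SLC6A15 is a carrier of branched-chain amino acids and proline. Both probes were dim, with mean raw signals of 69.3 and 56.2 in the controls and 77.9 and 59.4 with the inhibitors. The further probes of SLC6A15 had 0.11 and −0.01. SLC43A3 had 4 named probes, and the others fell short of detection on 3 arrays. SLC43A3 was listed for its family and is known to carry purine nucleobases rather than amino acids.

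Of the amino acid response and ATF4 pathway genes, 27 of 28 were measured, with 20 higher and 7 lower and a median of 0.10. With an unadjusted p under 0.05 there were 5 above and 2 below the controls, against 4.79% and 5.34% of all genes, and 0 passed after adjustment by limma. The groups did not overlap for 9 genes in the higher direction and 0 in the lower, against 8.92% and 7.40% of all genes. STC2, a secreted glycoprotein, read 0.36 ± 0.08 (SE), and ASNS, which makes asparagine, read 0.27 ± 0.08 on its brighter probe and −0.16 on the other. The STC2 probe was dim, with a mean raw signal of 67.1 in the controls and 79.2 with the inhibitors. The brighter ASNS probe had 2363 and 3155. ATF4 itself read 0.16 ± 0.09 (SE), with a limma adjusted p of 0.558 over genes and 0.03 and −0.08 on its further probes.

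The genes that use what the carriers bring in were split more evenly. Cystine use and glutathione synthesis had 9 of 17 measured genes higher with a median of 0.01. Its lowest p values belonged to GGT7, a gamma-glutamyltransferase family member, with 0.24 ± 0.09 (SE), and GPX4, which removes lipid peroxides with glutathione, with 0.19 ± 0.08 (SE). The other probe read 0.03 for GGT7 and 0.11 for GPX4. Glutamine and leucine use had 6 of 13 higher with a median of −0.01. Its lowest p was that of ASNS, the higher gene given above, which is in both lists. After it, the glutamine synthetase gene GLUL read −0.22 ± 0.08 (SE) while CAD, which starts pyrimidine synthesis, read −0.17 ± 0.07 (SE). The GLUL probe was dim, with a mean raw signal of 63.1 in the controls and 56.5 with the inhibitors. Lysosomal transport and amino acid sensing by mTORC1 had 17 of 30 higher with a median of 0.03. In it the Ragulator subunit gene LAMTOR4 read −0.27 ± 0.08 (SE) and the leucine sensor gene SESN2 read 0.27 ± 0.08 (SE). With median centring the glutamine and leucine median was 0.14, when the median of all genes was 0.12. None of these genes passed after adjustment, and whether the lists differ from each other was not tested.

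**Figure D5:**
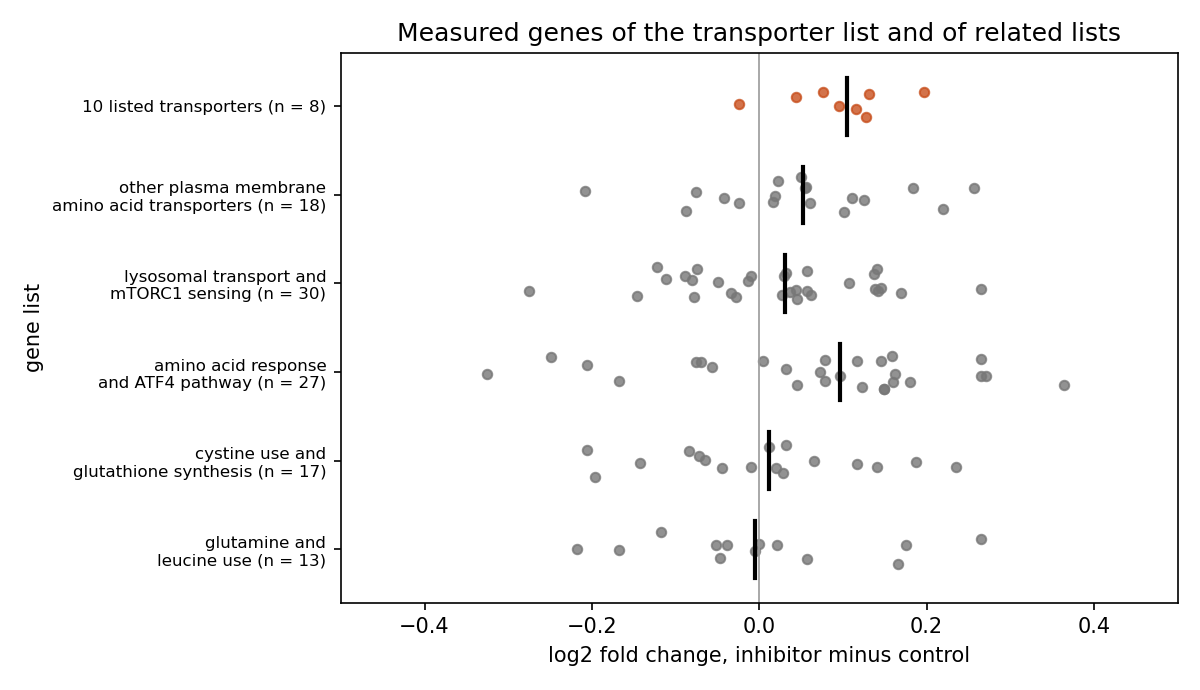
Log2 fold change, inhibitor minus control, of each measured gene (points) in the transporter list (orange) and in 5 related lists (grey); black bars are medians and points are spread vertically for legibility. The transporter median of 0.11 and the ATF4 pathway median of 0.10 lie right of 0, and the points of every list overlap.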

How the data were processed

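Per the file headers, the deposited array tables held for each probe the mean bead intensity on a linear scale, the SD of that intensity over beads, the bead count, and a detection score, a fraction from 0 to 1 read as 1 minus the detection p. BeadStudio made them, per the submitters' processing notes; its version was not given in the sources used here. Another deposited table gave the arrays scaled by the authors to the distribution of control replicate 1, as its values show. The tables carried different probe identifiers and were matched through each probe's ranks across the 6 arrays, a key that no 2 of the 48803 probes shared.

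Intensities were background-corrected with negative controls inferred from the detection scores (limma 3.58.1 in R 4.3.3, offset 16), quantile-normalized on the log2 scale and fitted with lmFit and eBayes without a replicate block. Probes with a score above 0.95 on at least 3 arrays were kept, 21928 in all. P-values were adjusted by Benjamini-Hochberg over all of them, or over 12183 genes where the brightest kept probe stood for a gene. Of the probes, 28098 had 1 symbol, 13 several and 20692 none here. Members and lists were chosen with earlier results of these data known. All members were named, with ATF4 and the 2 genes of lowest p of each related list, passing over genes already named for an earlier list. The procedure was also run on simulated data with independent noise on each array. No sensitivity to differences as small as those of the transporters is drawn from that run. Equal replicate numbers were not treated as pairs in the main fit. Their deviations from the group means correlated at 0.0891, −0.258 and −0.214. With 3 arrays per group these values cannot exclude pairing, which the labels leave unknown. Alternatives covered background, scaling, filters, offset, spread, weights, a replicate block, Welch's test and arrays left out. Figures were drawn with matplotlib 3.10.9. Precision is limited by the number of arrays, 3 per group.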

Additional observations from a re-analysis of the deposited data

How the results depend on the processing

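All alternatives were listed with earlier results of these data known. Under each of 18, 0 transporter probes, 0 of all probes and 0 genes of the related lists passed after adjustment with limma or, for probes, Welch's test, while 2200 probes had an unadjusted p under 0.05 with limma and 1409 with Welch's. With limma and 1 array left out, that count ran from 1309 of 21928 without inhibitor replicate 1 to 4253 without inhibitor replicate 3. Transporter probes among them ran from 0 to 3 of 11. With median centring it was 4347 of 21928, and 7 of the 11 transporter probes were in it. It split into 4099 higher and 248 lower, against 1060 and 1140 with quantile normalization. The transporter median of 0.11 moved to 0.24 with median centring and lay between 0.057 and 0.17 with 1 array left out, lowest without inhibitor replicate 1 and highest without inhibitor replicate 3. The genes above 0 numbered 6 to 8. Of 197 probe values under alternatives, 5 changed sign. SLC38A1 (ILMN_1769911) did so at 0.13 with median centring and spanned −0.059 to 0.017 with 1 array left out. Its other probe (ILMN_2266948) spanned −0.034 to 0.0996, and SLC7A5 −0.0079 to 0.0878 with 1 or 2 arrays left out. SLC7A11 stayed between 0.145 and 0.335, with an unadjusted p of 0.0223 to 0.148 with 1 array left out, 0.0644 by Welch's test and 0.0694 with the replicate block. With that block 0 transporter probes passed, and the lowest adjusted p among them was 0.661. The causes were not tested. Signal over background limits what is seen, since SLC1A4 and SLC43A1 gave no measurable signal.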

Other observations

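The wider list of plasma membrane amino acid carriers, some placed there by family, can be read from detection alone. By the probe detected on most arrays, 14 of 32 named genes outside the 10 listed ones were detected on all 6 arrays, 4 on 3 to 5, 4 on 1 or 2 and 10 on none. The genes named here were chosen after their values were seen. Detected on all 6 arrays were SLC7A6, SLC43A2 and SLC16A10, which carry large neutral, cationic or aromatic amino acids, and SLC3A1 with SLC7A9, the heavy and light chain of the cystine carrier of kidney and gut. SLC1A3, a glutamate carrier best known from glia, was also detected on all 6. The glutamate carrier SLC1A2, the glutamine carrier SLC38A3 and the broad carrier SLC6A14 were detected on none.

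Other short motifs were searched in the 16 promoter windows of the listed carriers, among which SLC7A11 again had none. TGACNNNGC, the core of the antioxidant response element through which NRF2 acts, was found in 4 of 9 genes (SLC3A2, SLC7A1, SLC7A5 and SLC1A5), against 16.1% of all genes. CACGTG, an E-box that MYC and related factors bind, was found in 3 of 9 (SLC43A1, SLC7A5 and SLC1A5), against 8.77%. These are counts of letters, with no test.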
